A study of Mus musculus with 9 samples.

Results

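Accessibility of chromosome 7 was examined in NOMe-seq (nucleosome occupancy and methylome sequencing) data from differentiating female mouse embryonic stem cells (mESCs). Its members were the windows of the GpC table that lay on chromosome 7, had a value in all 9 libraries and did not overlap an olfactory or vomeronasal receptor gene (symbols starting Olfr, Vmn1r or Vmn2r in GENCODE M21). These were 45237 of the 833294 deposited windows. Chromosome 7 held 46986 windows in all, of which 297 lacked a value in some library and 1452 touched a receptor gene. The chromosome had been selected because its median was the lowest of the 19 autosomes in every library, so that rank describes how it was chosen and is not a test. The members comprised 2220 promoter windows, which covered the start of a gene coding for a protein or a long non-coding RNA, 24445 genic windows and 18572 intergenic windows.

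The cells were F1 mESCs from FVB dams and CAST sires, so every library carried an FVB and a CAST copy of chromosome 7, and the deposited values merged both. One library came from undifferentiated cells at day 0. A further 4 came from cells that carried a non-silencing control hairpin (Nons) at days 4, 5, 6 and 7 of differentiation, and 4 from Smarcc1 knockdown cells at the same days. Hairpins were delivered by transduction on day 2 and cells were selected with puromycin from day 3. The day 0 cells are not labelled with a hairpin. The product of Smarcc1 belongs to the core of the BAF complex, which moves and evicts nucleosomes. Differentiation was undirected, so each library was a mixture of cells. There was 1 library per condition and day, so no difference between libraries has a replicate check. The table holds methylation only, and neither the depletion of Smarcc1 nor the identity of the cells could be checked in it.

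In NOMe-seq, an added methyltransferase modifies cytosines that follow a guanine (GpC sites) wherever DNA in fixed nuclei is not wrapped in a nucleosome. Bisulfite sequencing reads the marks. The higher the percentage, the more open the chromatin, and open chromatin is usual at active promoters and rare across the rest of a chromosome. Mouse chromosome 7 is rich in genes, and many of them stand in tandem families. Kallikreins, androgen-binding proteins, pregnancy-specific glycoproteins and Krüppel-type zinc fingers all have large clusters on it, as do the imprinted genes of the Peg3, Snrpn and H19 to Kcnq1 regions. In pooled cells, a lower percent in all cells and a smaller share of cells with open chromatin cannot be told apart.

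The GpC sites of chromosome 7 differ widely in density, and each value below averages the sites of 1 window. To show what the windows hold, the central 300 bases are given of 1 window from each of the lowest and highest bins described below. In each bin the window whose GC content was nearest to the bin's median was taken. Coordinates are in mm10 (GRCm38), the plus strand is printed, and capitals mark GpC dinucleotides. The stretch from bin 3, the lowest bin, lay between genes at chr7:11771861-11772160 and held 4 GpC dinucleotides. The stretch from bin 28, the second lowest, lay between genes at chr7:138706605-138706904 and held 13. The stretch from bin 6, the second highest, lay between genes at chr7:25617614-25617913, 1.501 kb from Dmac2, and held 21. The stretch from bin 1, the highest, lay in an intron of Ptprh at chr7:4559441-4559740 and held 5. Windows were picked by GC content and not by level, so a stretch need not be typical of its bin. The windows of Ptprh differed from the other autosomes by -1.91 points on average and were below them in 7 of 9 libraries. The printed bases of bin 1 had a GC content of 33.7%, against a median of 45.7% over the windows of that bin.
Bin 3, lowest: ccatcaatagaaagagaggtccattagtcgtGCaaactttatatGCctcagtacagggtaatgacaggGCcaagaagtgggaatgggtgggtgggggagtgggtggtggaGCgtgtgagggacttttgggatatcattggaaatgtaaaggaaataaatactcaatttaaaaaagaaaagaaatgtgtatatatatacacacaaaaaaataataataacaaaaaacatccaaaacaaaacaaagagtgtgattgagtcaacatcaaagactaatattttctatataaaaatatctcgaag
Bin 28, second lowest: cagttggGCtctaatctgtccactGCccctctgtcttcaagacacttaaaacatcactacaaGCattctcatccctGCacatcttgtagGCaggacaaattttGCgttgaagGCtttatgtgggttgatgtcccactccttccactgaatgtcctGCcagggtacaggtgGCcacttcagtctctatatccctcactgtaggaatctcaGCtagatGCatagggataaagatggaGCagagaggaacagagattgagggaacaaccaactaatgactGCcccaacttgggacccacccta
Bin 6, second highest: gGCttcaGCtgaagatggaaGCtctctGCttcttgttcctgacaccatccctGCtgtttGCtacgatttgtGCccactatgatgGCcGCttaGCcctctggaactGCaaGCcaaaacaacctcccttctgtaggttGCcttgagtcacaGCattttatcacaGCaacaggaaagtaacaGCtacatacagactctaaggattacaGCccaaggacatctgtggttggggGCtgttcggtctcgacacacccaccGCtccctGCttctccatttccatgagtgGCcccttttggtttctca
Bin 1, highest: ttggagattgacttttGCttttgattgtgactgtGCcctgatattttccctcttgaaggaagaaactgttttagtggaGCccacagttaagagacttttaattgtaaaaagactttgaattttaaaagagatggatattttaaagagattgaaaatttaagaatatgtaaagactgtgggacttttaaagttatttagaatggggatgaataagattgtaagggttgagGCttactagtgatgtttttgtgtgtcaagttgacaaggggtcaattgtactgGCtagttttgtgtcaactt

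The lowest and the highest promoter among the gene lists described below are shown as RefSeq gives them for GRCm38, from 250 bases before to 50 bases after the start, on the gene's own strand. Psg25, a pregnancy-specific glycoprotein gene on the minus strand, had its promoter at chr7:18532178-18532477, with 16 GpC dinucleotides. Zfp143, which encodes a zinc finger transcription factor and lies on the plus strand, had its promoter at chr7:110061452-110061751, with 26. The median over 2790 RefSeq promoters on chromosome 7 was 19. In the window around the Psg25 start, GpC methylation was 11.1% at day 0. Nons libraries from day 4 to day 7 gave 11.7, 8.18, 8.89 and 2.56%, and knockdown libraries gave 5.22, 6.98, 3.23 and 4.05%. The window around the Zfp143 start was at 67.4% at day 0, and the same series were 40.3, 46.3, 51.4 and 24.2% for Nons and 25, 53.5, 31.3 and 24.1% for the knockdown. Both promoters were picked as the extremes of mean level over these same libraries, so the distance between their values follows from the choice.
Psg25 promoter: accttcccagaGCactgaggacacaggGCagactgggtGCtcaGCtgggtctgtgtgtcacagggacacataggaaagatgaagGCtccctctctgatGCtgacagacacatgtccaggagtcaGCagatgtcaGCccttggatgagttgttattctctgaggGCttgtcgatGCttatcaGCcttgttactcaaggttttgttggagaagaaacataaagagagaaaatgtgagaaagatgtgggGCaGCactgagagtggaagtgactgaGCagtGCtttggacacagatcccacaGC
Zfp143 promoter: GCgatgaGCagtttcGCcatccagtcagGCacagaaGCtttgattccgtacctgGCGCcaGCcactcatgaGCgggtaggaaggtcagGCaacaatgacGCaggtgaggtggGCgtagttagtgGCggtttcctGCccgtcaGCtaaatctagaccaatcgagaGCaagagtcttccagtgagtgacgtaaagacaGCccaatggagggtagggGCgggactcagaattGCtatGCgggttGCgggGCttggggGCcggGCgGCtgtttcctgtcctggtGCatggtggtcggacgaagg

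Across all members, undifferentiated cells had a median GpC methylation of 10.98% on chromosome 7, against 11.29% over the windows of the other 18 autosomes. Nons cells had 13.6% on chromosome 7 against 13.97% elsewhere at day 4. The pair was 20.9% against 21.3% one day later, then 10% against 10.3%, and finally 6.21% against 6.42% by day 7. Knockdown cells had 10.9% against 11.1% when first sampled, then 19.8% against 20.2%, 11.6% against 11.9%, and 6.94% against 7.14% in the last sample. The library medians thus moved over a far wider range than the distance between chromosomes within a library. Relative to the other autosomes, the chromosome 7 median differed by between -0.433 (knockdown, day 5) and -0.198 percentage points (knockdown, day 7). As a share of the reference level, the difference ran from -1.67% (Nons, day 5) to -3.35% (Nons, day 7). The mean difference over the 9 libraries was -0.297 percentage points, while the mean differences of the other 18 autosomes had an SD of 0.0955. Chromosome 12 came next, at -0.148. Percent values pile up at simple fractions, so several autosomes shared a median in most libraries.

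**Figure D1:**
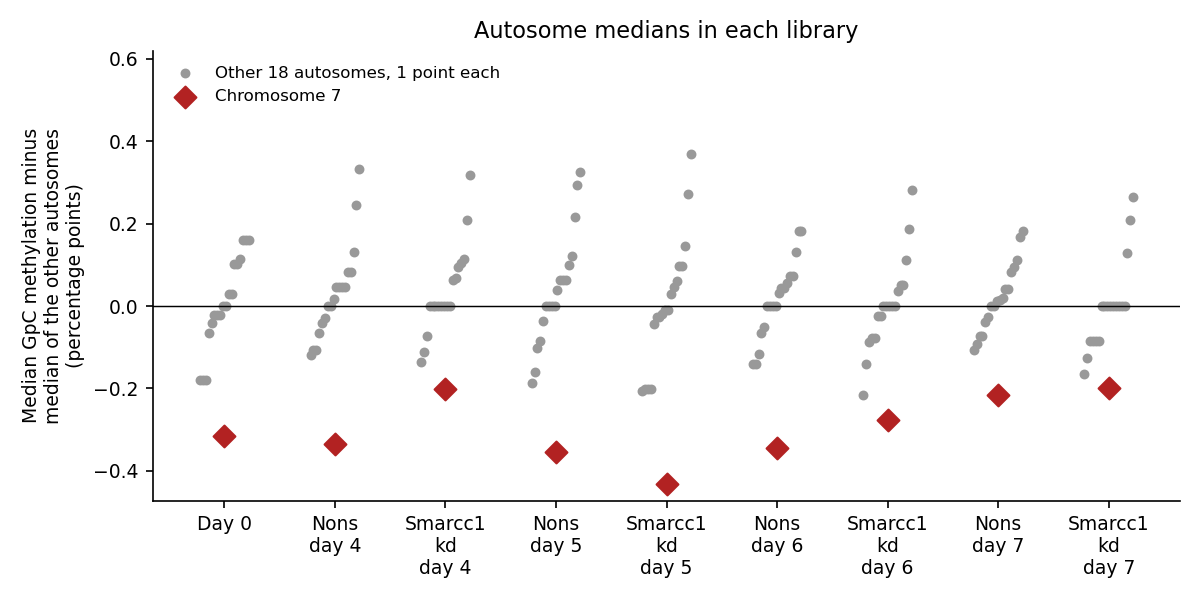
Median GpC methylation of each autosome minus the median over the windows of the other autosomes, in percentage points, for the 9 libraries on the x axis. Grey points are the other 18 autosomes and red diamonds are chromosome 7, which lies between -0.198 and -0.433 and below every grey point.

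The lower level was clearest in the lower and middle part of the distribution and smaller in its upper part. Averaged over libraries, the 10th percentile of the chromosome 7 windows differed from that of the other autosomes by -0.331 points and the 25th percentile by -0.329, while the 75th differed by -0.207 and the 90th by -0.0350. At the 75th percentile the difference ran from -0.439 to -0.0225, so it was negative in every library. At the 90th percentile the difference ran from -0.207 to 0.217, so the most open windows were not lower in every library. Ranked by the mean over windows, which gives open windows more weight, chromosome 7 was lowest in 4 of 9 libraries and ranked 5 from the lowest in the knockdown at day 7. Windows at exactly 0% were more frequent on chromosome 7 in every library, from 0.0398% against 0.0283% in Nons at day 4 to 6.51% against 5.27% in the knockdown at day 7. With every window at 0 or 100% in any library removed, the mean difference was -0.236 and chromosome 7 remained below the others in 9 of 9 libraries.

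Genic and intergenic windows were below the reference in every library, and promoter windows varied more. Over promoter windows the mean difference was -0.119 points, with an SD of 0.718 over the other autosomes. Chromosome 7 promoters were below the reference in 6 of 9 libraries and ranked 9 from the lowest by mean difference. Their medians ran from 7.88% against 8.22% (Nons, day 7) to 27.5% against 27.7% (Nons, day 5), and they lay above the reference in Nons at day 6 and in the knockdown at days 4 and 5. With receptor gene windows kept, the promoter difference was -0.715, below in 9 of 9 libraries and rank 3 from the lowest. With promoter windows split at the quartiles of GpC site density, the mean differences were -0.321, -0.560, 0.0269 and -0.487 from the sparsest to the densest, below in 7, 7, 6 and 8 libraries. Over genic windows the mean difference was -0.268 (SD 0.0942 over the other autosomes), below the reference in 9 of 9 libraries. Over intergenic windows it was -0.416 (SD 0.0949), again below in 9 of 9. The intergenic median was 10.7% against 11.1% at day 0, 9.64% against 10.2% in Nons at day 6 and 6.48% against 6.82% in the knockdown at day 7. By mean difference, chromosome 7 ranked lowest for genic and for intergenic windows, and the next lowest were chromosome 8 (-0.174) and chromosome 12 (-0.173). It had a larger share of promoter windows (4.91% against 3.52%) and a smaller share of intergenic windows (41.1% against 46.0%) than the other autosomes.

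**Figure D2:**
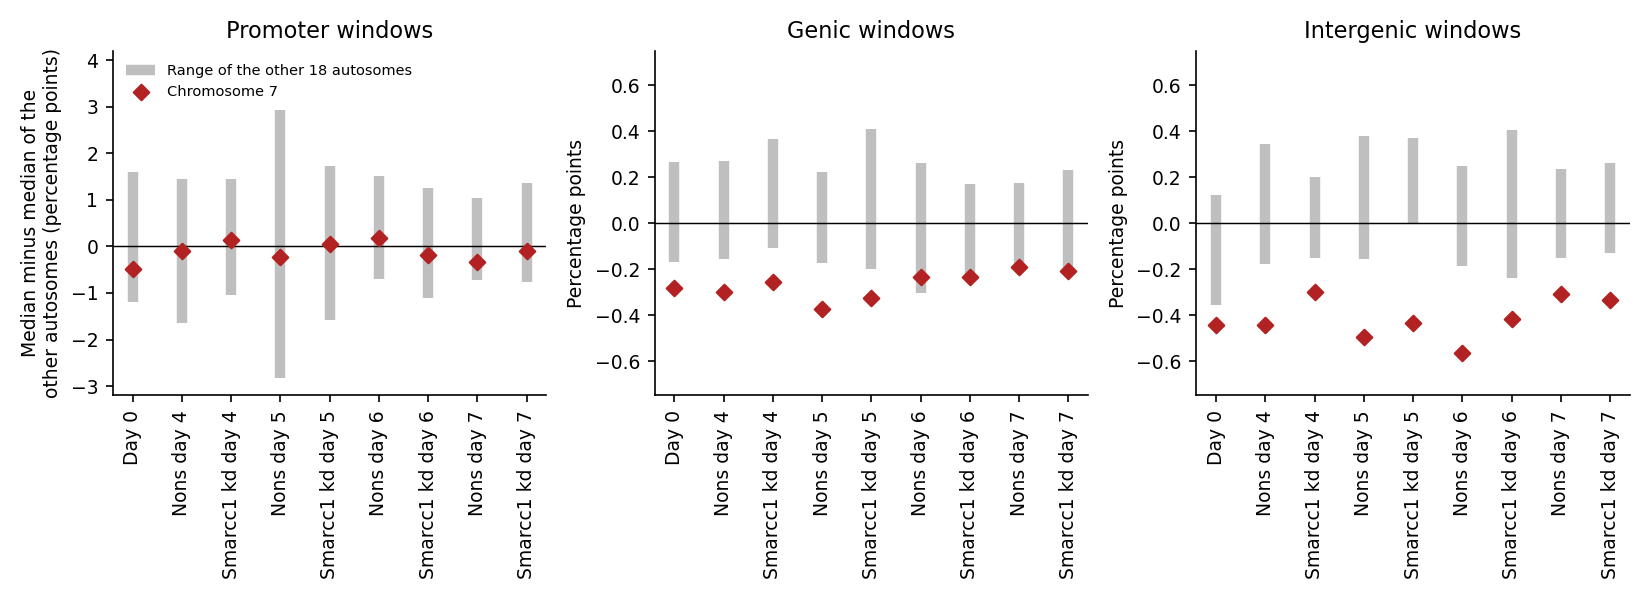
Chromosome 7 median minus the median of the other autosomes in percentage points, for promoter, genic and intergenic windows, by library, with a wider y axis for promoters. Grey bars span the other 18 autosomes, and the red diamonds of chromosome 7 lie inside the bars for promoters and below 0 in all libraries for the other classes.

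The windows were next grouped into 5 Mb bins numbered from the centromeric end, with at least 200 windows required. This gave 29 bins on chromosome 7. A last bin of 162 windows at the telomeric end was left out, and its mean difference was -1.15. A bin was called low when its median lay below the reference of the other autosomes in all 9 libraries. Of the 29 bins, 9 were low (31.0%), against 12% of the 466 bins on the other 18 autosomes. No bin of chromosome 7 was above the reference in all 9 libraries, against 14.6% of the other bins. The mean difference was below 0 in 21 of 29 bins, whereas it was below 0 in 47.2% of the other bins. Since the chromosome was selected for its level, these counts describe how the level was spread along it. The low bins were numbers 2, 7, 8, 11, 12, 13, 24, 25 and 28 and held 30.5% of the members. The least extreme of them was bin 13, with a mean difference of -0.365. Bins 3, 9, 16 and 29 were below the reference in 8 libraries and fell just outside the call, at -0.858, -0.526, -0.294 and -0.544. Bin 3, which had the lowest mean of all, missed it through Nons at day 4 alone (14.02% against 13.97%, a difference of 0.0481).

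**Figure D3:**
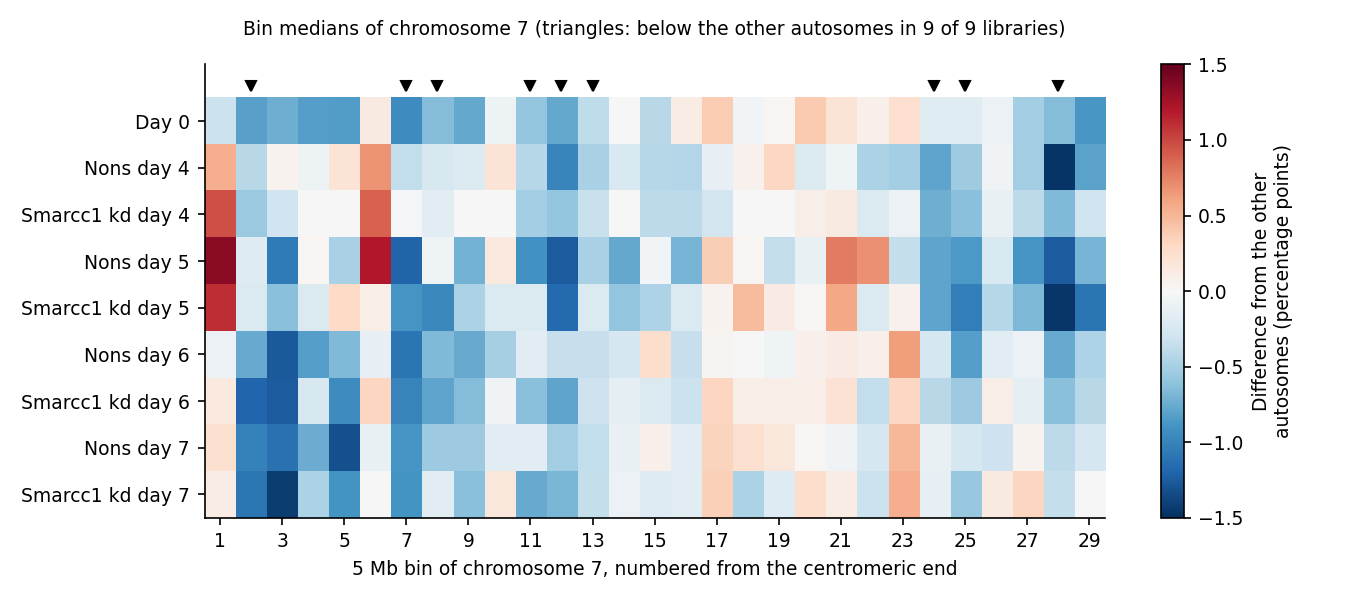
Bin median minus the reference of the other autosomes (colour, in percentage points) for the 29 bins of 5 Mb on chromosome 7 (x axis, numbered from the centromeric end) and the 9 libraries (y axis). Triangles mark the 9 bins below the reference in every library. Bin 4 lies at -0.825 at day 0 and near 0 at days 4 and 5, and the deepest value is that of bin 28 in Nons at day 4 (-1.47).

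The bins were ranked by their pull, that is, by how far the mean difference of chromosome 7 moved when the windows of that bin were left out. The strongest downward pull came from bins 28, 12, 7, 29 and 9. Bins 28 and 29 adjoin each other, and bins 7 and 9 are separated only by bin 8, which was also low. No single bin shifted the mean by more than 0.0292 points. With these 5 bins removed together, the mean difference was -0.181, still below 0 in 9 of 9 libraries (-0.102 by means over windows), and chromosome 7 remained the lowest autosome by mean difference. It also remained so when every autosome lost its own 5 strongest bins.

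Bin 28 (chr7:135000001-140000000) had 2077 windows and 26 protein-coding genes, and 54.7% of its windows were intergenic. Its median was 10.6% at day 0. From day 4 to day 7, it was 12.5, 20, 9.59 and 6.03% for Nons and 10.4, 18.8, 11.3 and 6.78% for the knockdown. All 9 values were below the reference, with differences of -1.47 to -0.363 points, and the largest differences were those of Nons at day 4 (-1.47) and of the knockdown at day 5 (-1.46). Genic (-0.796), intergenic (-0.840) and promoter windows (-1.16) were all lower on average than their classes elsewhere. The longest genes of the named bins were taken by length alone to show which loci the bins hold. In bin 28 these were Mgmt, which encodes a DNA repair methyltransferase, Inpp5a, an inositol polyphosphate phosphatase, and Tcerg1l. Their windows differed from the reference by -0.671, -0.775 and -1.29 on average and were below it in 6, 7 and 8 libraries.

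Bin 12 (chr7:55000001-60000000) had 1392 windows and only 12 protein-coding genes, and genic windows (-0.864) and intergenic windows (-0.745) were both low. Its medians were 10.5% at day 0, then 13.0, 20, 10 and 5.90% for Nons and 10.5, 19.05, 11.1 and 6.45% for knockdown cells. The bin lies in the region that corresponds to the human Prader-Willi and Angelman locus. Among its longest genes were Gabrg3, which encodes a subunit of the GABA-A receptor, and the pigmentation gene Oca2. Over 195 windows, Gabrg3 averaged -1.25 and was below the reference in 8 of 9 libraries. Oca2 averaged -0.553 and was below in 6.

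Bin 7 (chr7:30000001-35000000) divided by class. Its intergenic windows had a mean difference of -1.47, the lowest of the 29 bins, while its genic windows had -0.156. The bin had 107 protein-coding genes, 29 of which were androgen-binding protein genes (Scgb1b and Scgb2b), a family of secreted proteins of saliva and tears. Its longest genes outside that family went the other way, with 1.74 for Lsm14a, an RNA-binding protein gene that was above the reference in 9 of 9 libraries, and 0.458 for the sulfotransferase gene Chst8. Bin 29 (chr7:140000001-145000000) was low in its genic windows (-0.909) more than in its intergenic windows (-0.133). Shank2, which encodes a scaffold protein of excitatory synapses, was at -1.36 over 197 windows and was below the reference in 9 of 9 libraries. The chloride channel gene Ano1 averaged -1.21 and was below in 8, and the potassium channel gene Kcnq1 averaged -0.525 and was below in 7. Bin 9 (chr7:40000001-45000000), which holds 26 kallikrein genes, averaged -1.47 over promoter, -0.589 over genic and -0.637 over intergenic windows.

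The strongest upward pull came from bins 6, 17 and 23. Bin 6 (chr7:25000001-30000000) held 143 protein-coding genes, among them 20 zinc finger genes and 13 cytochrome P450 genes. Its median exceeded the reference in the day 4 and 5 libraries, by up to 1.20 points in Nons at day 5, and lay below it in 2 of 9 libraries. The promoter windows of bin 6 averaged 2.14 points above promoters elsewhere. Ryr1, which encodes the calcium release channel of skeletal muscle, averaged 1.62 and was above the reference in 9 of 9 libraries. Bins 17 and 23 averaged 0.162 and 0.149. They were not uniform, because Galnt18 in bin 23 (-1.79) and Cemip in bin 17 (-1.36) were below the reference in 9 of 9 libraries, whereas Sbf2 in bin 23 (0.883) was above it in 8. Bin 1 had the highest mean difference of the chromosome (0.450) but few windows, and it ran from -0.327 at day 0 to 1.35 in Nons at day 5.

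From the bin profile, which had been seen, the chromosome was divided into 4 stretches. The proximal stretch (bins 1 to 10, 13172 windows), the middle stretch (bins 11 to 16, 9321 windows) and the distal stretch (bin 24 to the telomeric end, 12047 windows) had mean differences of -0.323, -0.379 and -0.482. The upper middle stretch (bins 17 to 23, 10697 windows) lay at 0.0908. The class that was low differed along the chromosome. In the proximal stretch, intergenic windows averaged -0.738 and were below the reference in 9 of 9 libraries, while genic windows averaged -0.157 and were below in 5, and promoters averaged 0.0510 and were below in 4. In the middle stretch, promoter windows averaged -1.25 (8 of 9 libraries), genic windows -0.478 (9 of 9) and intergenic windows -0.239 (8 of 9). In the distal stretch, genic (-0.529) and intergenic windows (-0.584) were low in 9 of 9 libraries, and promoters averaged -0.0547. Over the 29 bins, the intergenic difference was below 0 in 23 and the genic difference in 21, against 49.4% and 43.9% of the bins elsewhere.

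The stretches also differed in when they were low. The proximal stretch differed from the reference by -0.521 points in undifferentiated cells. At day 4 it was above the reference in Nons (0.0294) and in the knockdown (0.0777), and day 5 brought it to -0.0636 and -0.213. By day 6 it had reached -0.667 in Nons and -0.468 in the knockdown, and the day 7 values were -0.608 and -0.476. Nons and knockdown libraries of the same day thus resembled each other, and day 0 resembled days 6 and 7. The distal stretch had the opposite order. Undifferentiated cells were at -0.421. Nons and knockdown cells were at -0.718 and -0.473 when sampled at day 4, and at -0.820 and -0.936 one day later. Day 6 gave -0.345 and -0.366, and day 7 gave -0.172 and -0.0840. The upper middle stretch was above the reference in 7 of 9 libraries, the exceptions being both day 4 libraries (-0.158 and -0.0817). The middle stretch was below in all 9, with differences of -0.689 to -0.172 points.

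**Figure D4:**
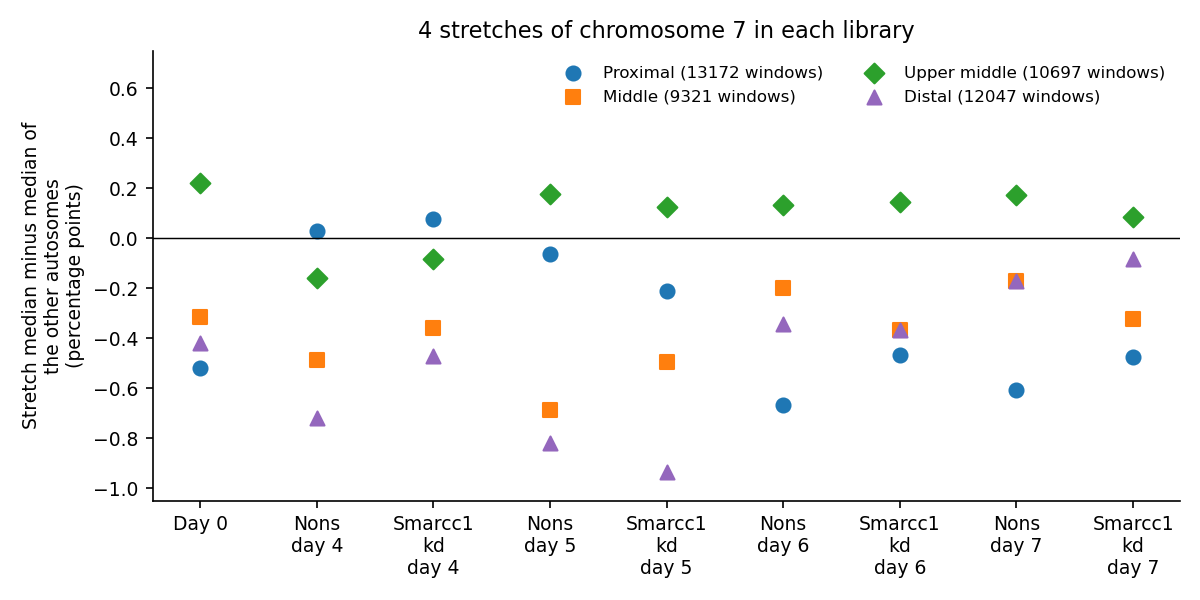
Median of each of 4 stretches of chromosome 7 minus the median of the other autosomes, in percentage points (y axis), in the 9 libraries (x axis), with 1 point per stretch and library. The proximal stretch lies near 0 at day 4 and below -0.46 at days 0, 6 and 7, and the distal stretch is lowest at day 5.

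The same order was visible bin by bin. For each bin, the mean difference over the 4 libraries of days 4 and 5 was subtracted from the mean over the other 5, a grouping chosen after the values were seen. Bins 1 and 5 had values of -0.972 and -0.941, lower than in any of the 466 bins elsewhere. They also held the fewest windows of the 29 bins (660 and 669), and medians over fewer windows scatter more. The part of bin size in these values was not tested. Bins 23 and 28 had values of 0.673 and 0.655, higher than in 99.8% of those bins. As a description over the 29 bins, whose points share the libraries, the Pearson correlation of the bin profile between libraries of days 4 and 5 had a median of 0.737 over 6 pairs, and between libraries of days 6 and 7 a median of 0.819. Between these sets it was 0.350 over 16 pairs. Day 0 correlated at 0.727 with days 6 and 7 and at 0.375 with days 4 and 5. Over the pooled 466 bins of the other autosomes, the corresponding medians were 0.741, 0.689, 0.606, 0.612 and 0.609. The split between days was thus wider over the chromosome 7 bins than over the pooled bins. The days had been grouped after the values were seen, and the correlations were not computed for each other autosome. Whether the split is wider than on single autosomes was therefore not tested. Whether the split exceeds the variation between repeat libraries was not tested either.

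The sequence composition of chromosome 7 was unusual, and the correlations of its bin levels with composition were weak. The median GC content of its windows was 44.3%, second only to chromosome 11 (44.7%), and the windows had a median length of 2596 bases. Over the 29 bins, the correlation of the mean difference with GC content was 0.0922, with window length -0.181 with the share of repeats -0.120, with GpC site density 0.119 and with the share of promoter windows 0.196. In the other 466 bins these were -0.00535, -0.0286, 0.0633, 0.0185 and 0.204. When each library's windows were compared within 20 classes of GC content and within window class, the mean difference was -0.299, with an SD of 0.0913 over the other autosomes, and chromosome 7 was lowest in 9 of 9 libraries. With windows split at the quartiles of GC content, the members lay below in 9 of 9 libraries in each part, with mean differences of -0.241, -0.342, -0.371 and -0.238 from the lowest to the highest. The same held when windows were split at the quartiles of repeat content, with mean differences of -0.231 to -0.334.

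Among the genes of chromosome 7, promoter levels separated by family. The level of each promoter window was set against the median of promoter windows on the other autosomes, and a window was counted only if it lay on the same side in all 9 libraries. On the other autosomes, 3.07% of promoter windows were below in all 9 and 5.1% above. On chromosome 7, 4.23% of promoter windows were below in all 9 and 6.17% above. The corresponding shares below were 0.794% against 0.4996% for genic and 0.824% against 0.453% for intergenic windows, and the shares above were 1.07% against 0.998% and 0.818% against 0.902%.

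Median promoter levels were below those of promoters elsewhere in 8 of the families. The androgen-binding protein genes had a median difference of -7.37 points over 23 promoter windows, of which 9 were below in all 9 libraries and 0 above. One of these was Scgb2b12, at 7.14% at day 0, with a Nons series of 8.14, 9.43, 11.1 and 1.45% and a knockdown series of 5.41, 12.5, 10 and 1.37% from day 4 to day 7. The 23 windows differed in length, and the window with the starts of Scgb2b15 and Scgb1b15 spanned chr7:32808150-32895725, far beyond a promoter. Promoters of the cell adhesion and pregnancy-specific glycoprotein genes (Ceacam and Psg) had a median of -5.30, with 7 of 27 windows below in all 9 libraries, Psg25 and Ceacam5 among them. Mrgpr genes, which encode receptors of sensory neurons and mast cells, had a median of -4.86, with 4 of 19 windows below. Kallikreins, a family of secreted serine proteases, had a median of -4.11, with 6 of 26 below. Klk15 was at 5.13% at day 0, between 3.41 and 18.6% in Nons and between 5.56 and 10.3% in the knockdown. The lectin receptors of the Siglec family (-2.85, 1 of 6 below), the Nlrp genes (-2.70, 0 of 13), the β-globins (-2.60, 1 of 4, Hbb-y) and the Cyp2 genes (-1.47, 2 of 15) had smaller median differences. No promoter window of these 8 families was above in all 9 libraries.

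The zinc finger genes were the largest group, with 101 promoter windows, a median of 5.02 points above promoters elsewhere, 13 windows above in all 9 libraries and 0 below. Ribosomal protein genes, which all growing cells use, had a median of 7.76 over 13 windows, with 3 above in all 9, among them Rpl27a. It was at 40.9% at day 0, between 32.2 and 44.7% in Nons and between 11.9 and 47.4% in the knockdown. Imprinted genes, which are expressed from 1 parental copy, had a median of 3.33 over 29 windows, with 3 above in all 9 libraries and 0 below. These were Kcnq1ot1, the long non-coding RNA of the Kcnq1 cluster, Ube3a, the ubiquitin ligase gene of Angelman syndrome, and Inpp5f. Kcnq1ot1 was at 17.6% at day 0, with a Nons series of 34.4, 42.7, 29.1 and 24.6% and a knockdown series of 15, 42.6, 28.3 and 16.7%. Since both alleles were merged in these values, a level of 1 parental copy could not be read. H19 was at 14.7% at day 0 and lay above the promoter median in 7 of 9 libraries. Developmental regulators had a median of 3.19 over 17 windows. One, Utf1, a transcription factor gene of pluripotent cells, was above in all 9 libraries, at 34.9% at day 0, with a Nons series of 44.8, 38.3, 18.6 and 30.9% and a knockdown series of 13.9, 33.1, 33.3 and 72%. The knockdown value at day 7 was the highest of the 9 and the knockdown value at day 4 the lowest.

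**Figure D5:**
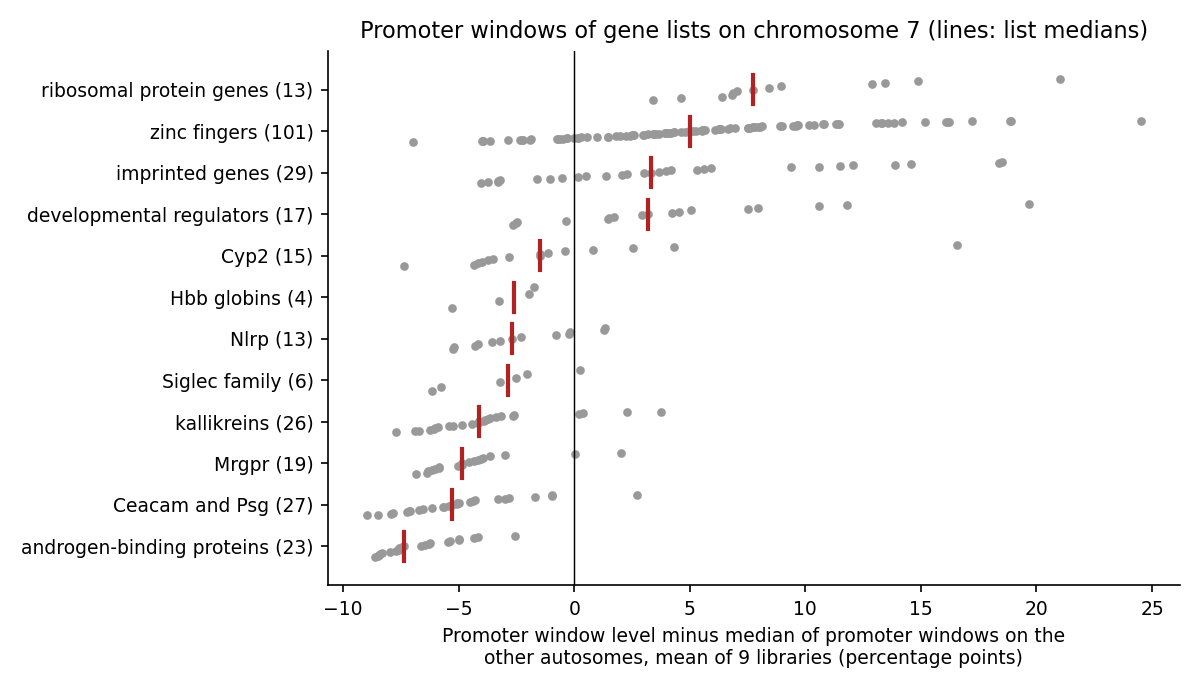
Promoter window level minus the median of promoter windows on the other autosomes, averaged over 9 libraries (x axis, percentage points), for 12 gene lists of chromosome 7 (y axis, with the number of windows). Each point is 1 window and red lines are list medians, which run from -7.37 for androgen-binding proteins to 7.76 for ribosomal protein genes.

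For the 4 families with the lowest median promoter levels, the whole cluster region was examined. Low regions were therefore likely from the choice, and each of the 4 was below the reference in every library. From the first to the last gene of its cluster, the androgen-binding protein region (chr7:31290508-34100837, 579 windows) had a median of 8.70% at day 0. Its Nons series was 12.1, 17.8, 7.41 and 4.62% and its knockdown series 9.60, 16.7, 8.82 and 4.40%. The differences from the reference ran from -3.55 to -1.51 points and were negative in 9 of 9 libraries. The Mrgpr region (chr7:47185707-48643811, 301 windows) had a mean difference of -2.02, the Ceacam and Psg region (chr7:16671331-18821607, 615 windows) one of -1.42 and the kallikrein region (chr7:43690418-44229618, 195 windows) one of -1.10, all below in 9 of 9 libraries. A median of 46.5% of bases in the windows of the androgen-binding protein region and 46.3% in those of the Mrgpr region were marked as repeats, against 24.5% over chromosome 7. The genes of such families are close copies, and reads may have been lost or placed on the wrong copy. The part of repeats and of read placement in these values was not tested. These 4 regions, delimited after values had been seen, made up 3.74% of the members. Without them the mean difference of chromosome 7 was -0.227, and it lay below the other autosomes in 9 of 9 libraries. Clusters of this kind on the other autosomes were not left out of the reference. The receptor gene windows that had been left out were also low, with differences of -1.04 to -0.291 points, and with them kept the mean difference was -0.307.

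Whether chromosome 7 responded to the Smarcc1 knockdown differently from the other autosomes was asked last. The median window of chromosome 7 differed between knockdown and Nons by -2.70, -1.14, 1.51 and 0.694 points from day 4 to day 7. The other autosomes differed by -2.80, -1.07, 1.496 and 0.659. The difference between them was 0.0998, -0.0634, 0.0121 and 0.0349 points at the 4 days. At day 4 the fall was thus smaller on chromosome 7 than on any other autosome, and the SD over the other autosomes was 0.0405. At the other days, the value lay within 1 SD of 0. The mean over days was 0.0208 (SD 0.0673, n = 4 day pairs), with a positive sign at 3 of 4 days and p = 0.625 in a two-sided exact permutation test that flips the signs of days, in which 4 pairs cannot give less than 0.125. The mean was 0.0660 for intergenic windows (p = 0.25, same exact test), -0.00769 for genic windows (exact p = 0.875) and 0.0180 for promoter windows (exact p = 0.875). Over the stretches, the day 4 difference was largest in the distal stretch (0.259) and ran from 0.0297 to 0.0683 in the others.

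At single windows, no knockdown effect shared by days 4 to 7 passed the threshold. With limma on the percent scale, day as a block and Benjamini-Hochberg adjustment over 829493 windows, 0 of the 45237 members had an adjusted p below 0.05, as was true of all windows (0% called), and the smallest adjusted p was 0.995. At an unadjusted p below 0.05, 746 members were higher in the knockdown (1.65%, against 1.58% of all windows) and 1242 were lower (2.75%, against 2.65%). After quantile normalization these counts were 1177 (2.60%) and 1185 (2.62%), against 20315 and 21143 of all 829493 windows. The excess of lower windows thus depended on the scaling.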

How the data were processed

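NOMe-seq libraries were made by the authors with a post-bisulfite kit from nuclei fixed in formaldehyde. Per the study's methods, reads were trimmed with trim_galore, aligned with Bismark to mm10 masked at FVB and CAST variants, and filtered for NOMe-seq contexts. The submitters' processing notes name bcl2fastq, Bismark and mm10, without versions. The table deposited by the authors gives the methylated percent of GpC calls in windows of 200 read positions, averaged in Seqmonk with alleles merged. They did not appear normalized between libraries. Counts per window were not used here, so depth and counting error are unknown. Windows are shorter where read positions lie closer together.

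The members and gene lists were chosen with earlier results of these data known. Genes came from GENCODE M21, and GC and repeat content from GRCm38. Levels were medians over windows, and the reference was the median over the windows of the other 18 autosomes. The SD over the other autosomes describes spread within libraries, not between replicates. Bins of 5 Mb needed 200 windows. Named bins were the 5 with the strongest downward and the 3 with the strongest upward pull, with bins at the edge of the call. Knockdown and Nons libraries were paired by day as the labels give it. Tests were an exact sign-flip permutation test over days and limma 3.58.1 in R 4.3.3. The limma fit covered 829493 windows of the autosomes and X with the day as a block. It was checked on simulated windows with a common spread and shifts far larger than the knockdown differences reported here. Whether it would find smaller shifts was not tested. The sign-flip test was checked on a set of fixed numbers. Python 3.11.15, numpy 2.4.6 and pandas 2.3.3 were used. Longest genes, stretches, cluster regions, printed promoters and the grouping of days were added after values were seen. Alternatives were receptor windows kept, all windows with a value, means, windows of 10 kb or less, windows at 0 or 100% removed, quantile normalization, other bins, references, promoter definitions and composition classes, and leaving out days and libraries. Values of a few single genes are not reported here.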

Additional observations from a re-analysis of the deposited data

Results flagged for a closer look

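The proximal stretch of chromosome 7 moved in opposite directions at different days. Averaged over the Nons and knockdown libraries, it lay 0.0536 percentage points above the other autosomes at day 4, with both libraries above, and its later values were -0.138 (day 5), -0.567 (day 6) and -0.542 (day 7), with both libraries below each time. The difference between days was not tested, and the stretch was delimited after its values were seen.

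The knockdown difference of chromosome 7 relative to the other autosomes had opposite signs at day 4 (0.0998) and day 5 (-0.0634). Each value rests on 1 pair of libraries, and the difference was not tested.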

How the results depend on the processing

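The mean difference of chromosome 7 stayed negative and lowest by mean under all 7 alternatives to the processing that were run, and ran from -0.309 to -0.217 with those that left out 1 library each (-0.309 to -0.280) included. Genic (-0.271 to -0.208), intergenic (-0.435 to -0.348) and composition-standardized differences (-0.325 to -0.272) also stayed negative. The promoter difference ran from -0.715 with receptor windows kept to -0.0204 with windows at 0 or 100% removed. It was below in 9 of 9 libraries in the first case and in 5 in the second. Low bins made up 27.6 to 37.9% of the bins, against 10.1 to 15.5% of the bins on the other autosomes under the same alternatives. Both shares were highest with means over windows. Without the 5 bins of strongest pull, the difference was -0.102 by means over windows. The knockdown difference changed sign without day 4, to -0.00547, and its values with 1 day left out ran from -0.00547 to 0.0489. The limma count stayed at 0 under all 3 alternatives. At an unadjusted p below 0.05, the reported fit had 1988 members (4.39%), against 35121 of all 829493 windows. Without the day block there were 368 (0.813%) against 5922, and on the arcsine scale 2236 (4.94%) against 37408. After quantile normalization there were 2362 (5.22%) against 41458. Of those 2362 members, 1177 were higher and 1185 lower in the knockdown, against 20315 and 21143 of all windows. There is 1 library per condition and day, and the depth is unknown, so the error of any single value is unknown too.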
